A study of Danio rerio with 9 samples.

Results

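The genes described here encode the nuclear-coded subunits of respiratory complex III, complex IV and the mitochondrial ATP synthase, measured in whole zebrafish embryos exposed to pentachlorophenol. They were taken as every probe set that the platform annotation assigns to exactly 1 gene and whose current or older symbol starts with uqcr, cyc1, cox4, cox5, cox6, cox7, cox8 or atp5. This gave 42 genes out of 8793 on the array. Of these, 8 belong to complex III, 14 to complex IV and 18 to ATP synthase, the last including 2 genes for its inhibitory factor. The other 2 genes carry an older symbol of that form and are subunits of none of the 3 enzymes: dmac2l, formerly atp5s, encodes distal membrane arm assembly component 2 like, known as coupling factor B in mammals, and emc8, formerly cox4nb, encodes a subunit of a membrane protein insertion complex of the endoplasmic reticulum. Where a gene had more than 1 probe set, the one with the highest mean signal over all arrays stood for it.

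Pentachlorophenol is a chlorinated phenol used as a wood preservative and known to uncouple respiration from ATP synthesis. Total RNA came from wild-type Tuebingen embryos, whole body, chosen by eye at gastrula stage about 8 h after fertilisation, and each sample was labelled with biotin and hybridised to its own Affymetrix array. There were 3 groups of 3 arrays: a deionized water control, 20 µg/L pentachlorophenol and 50 µg/L pentachlorophenol. The labels call the arrays of a group biological replicates but do not give the number of embryos pooled or whether clutches were separate. The p-values therefore reflect the spread among these samples alone, which may be technical.

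In the inner mitochondrial membrane, complex III passes electrons from ubiquinol to cytochrome c, and complex IV, cytochrome c oxidase, passes them from cytochrome c to oxygen. Both move protons out of the matrix, and ATP synthase lets them return through its membrane ring while its soluble head makes ATP. Each enzyme combines a few catalytic subunits with many small supernumerary subunits, which are known to assist assembly, stability or regulation. Cytochrome b, the 3 core subunits of complex IV and 2 membrane subunits of ATP synthase are encoded in mitochondrial DNA. No 1-gene probe set measured these here. Of the nuclear genes, cox4i1 had none either, and the probe set of atp5fa1, the alpha subunit of ATP synthase, also names a second gene and was not used. An uncoupler acts on the proton gradient itself, and the arrays measured transcripts only.

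All signals are the deposited intensity values on a linear scale. All changes are log2 differences of group means of log2(signal + 1), given with the standard error (SE) of the fit and an adjusted p from limma with Benjamini-Hochberg adjustment over 9302 probe sets. A gene is said to have risen or fallen where the adjusted p was under 0.05. The median signal of an array over all probe sets lay between 97.6 and 150.9. The manufacturer's tag control probe sets, whose 95th percentile on each array served as the level below which a signal was not told from background, gave levels from 50.6 to 113.8. The third control array and the first 50 µg/L array stood apart from the rest: their median rank correlations with the other arrays were 0.847 and 0.876, against 0.905 to 0.921 for the other 7 arrays. All 12 gastrula marker genes listed were above the filter on dim signals, and none of the 5 measured of 10 markers of later organs was.

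At 50 µg/L the genes of all 3 enzymes were mostly lower than in the control. Of the 40 genes bright enough to be tested, 12 fell and 1 rose, while over all probe sets tested 1.03% fell and 3.53% rose. Among the 1932 genes on the array with a mean signal of at least 1000, 53 fell and 51 rose. The median change was -0.77 on the log2 scale over all 42 genes, against 0.06 over all genes on the array. Of the 42 genes, 36 had a lower mean at 50 µg/L than in the control, and for 30 of them (71.4%) every 50 µg/L array lay below every control array. Over all genes 9.79% were below the control in that way and 14.8% above it; of the 42 genes 1 was above it, cox6b1. In whole embryos, fewer cells that use a gene and less of its RNA per cell cannot be told apart.

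**Figure D1:**
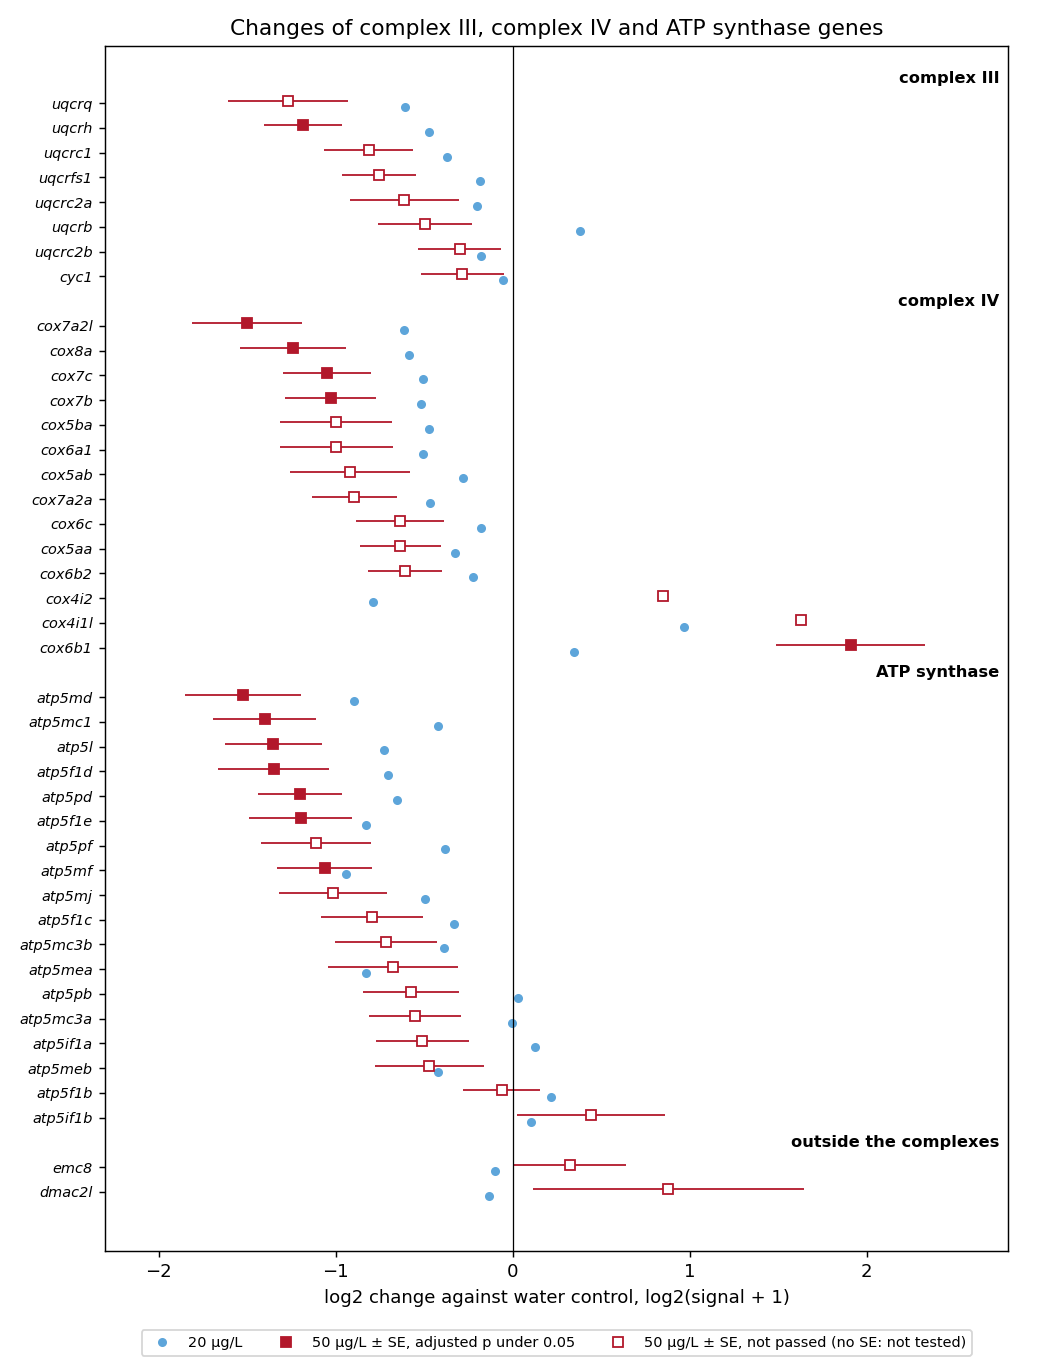
Each row is 1 gene of complex III, complex IV, ATP synthase or the 2 genes outside them. Red squares give the log2 change at 50 µg/L against the control with bars of 1 SE, filled where the adjusted p was under 0.05, and blue circles give the log2 change at 20 µg/L against the control. Most red squares lie to the left of 0 (36 of 42), with the cox6b1 square at 1.91 as the only filled square on the right.

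Complex III had 8 measured genes. All 8 had a lower mean at 50 µg/L, with a median change of -0.68, and 1 of them fell. That gene was uqcrh, which encodes the hinge protein, a small acidic subunit beside cytochrome c1. The signal of uqcrh was 7323, 8009 and 8690.1 in the control arrays, 5696, 7011 and 4773 at 20 µg/L and 3099, 3482 and 4018 at 50 µg/L. The 3 arrays at 50 µg/L were the lowest of the 9, and those at 20 µg/L lay below the control without overlap. Its change at 50 µg/L was -1.18 (SE 0.22, adjusted p = 0.0161).

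The gene with the lowest fitted value in complex III, uqcrq, a small subunit bound near cytochrome b, did not pass the test. Control arrays gave 2726, 5185 and 3715 for uqcrq, the 20 µg/L arrays 2676, 3314 and 1665 and the 50 µg/L arrays 1266, 2221 and 1327. Its 50 µg/L arrays were all below its control arrays, but the control arrays spread widely, and the change was -1.27 (SE 0.34, adjusted p = 0.0539). The Rieske iron-sulfur protein, uqcrfs1, is one of the 3 redox subunits. The signal of uqcrfs1 was 3841, 3525 and 3849 in the control arrays, 3546, 3113 and 3215 at 20 µg/L and 1978, 2441 and 2255 at 50 µg/L. These groups did not overlap at 50 µg/L and the change was -0.75 (SE 0.21, adjusted p = 0.0593).

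Core protein 1, encoded by uqcrc1, faces the matrix together with core protein 2. Control arrays gave 1596, 1521 and 1879 for uqcrc1, the 20 µg/L arrays 1569, 1184 and 1137 and the 50 µg/L arrays 785, 1074 and 995. Every 50 µg/L array was below every control array, with a change of -0.81 (SE 0.25, adjusted p = 0.0769). The genes for core protein 2 form a pair, uqcrc2a and uqcrc2b. The signal of uqcrc2a was 622, 501 and 1097 in the control arrays, 683, 652 and 507 at 20 µg/L and 499, 434 and 441 at 50 µg/L. Control arrays gave 2544, 2854 and 2936 for uqcrc2b, the 20 µg/L arrays 2668, 2798 and 1967 and the 50 µg/L arrays 2546, 2247 and 2001. For uqcrc2a the third control array was the high one, without which its change was -0.29, beside -0.26 for uqcrc2b. The groups of uqcrc2a at 50 µg/L and control were narrowly without overlap (highest at 50 µg/L 498.9, lowest control 500.8). Those of uqcrc2b narrowly overlapped (highest at 50 µg/L 2545.5, lowest control 2543.8). Over all arrays the changes of the pair were -0.61 (adjusted p = 0.239) and -0.30 (adjusted p = 0.451). A second probe set of uqcrc2a had a mean of 51.0 over the arrays and was too dim to be tested.

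Cytochrome c1, the heme subunit that hands electrons to cytochrome c, is encoded by cyc1. Over all arrays it had the smallest change of the complex, close to the -0.30 of uqcrc2b. Without the third control array cyc1 was at -0.34 and uqcrc2b at -0.26. The signal of cyc1 was 3877, 3243 and 3125 in the control arrays, 3993, 3147 and 2806 at 20 µg/L and 2428, 3268 and 2744 at 50 µg/L. Its groups overlapped, and its change was -0.28 (SE 0.23, adjusted p = 0.48). The ubiquinone-binding protein gene uqcrb was the only one of the 8 with a higher mean at 20 µg/L than in the control. Control arrays gave 2962, 3269 and 2002 for uqcrb, the 20 µg/L arrays 3658, 3818 and 3073 and the 50 µg/L arrays 1842, 1536 and 2443. The third control array was low, the groups at 50 µg/L and control overlapped, and the change was -0.50 (adjusted p = 0.272). By role, the medians were -0.52 over the 2 redox subunits, -0.61 over the 3 core protein genes and -1.18 over the 3 small subunits.

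Complex IV had 14 measured genes, of which 12 were bright enough to be tested. At 50 µg/L 4 fell and 1 rose, against 1.03% and 3.53% of all probe sets tested. The median change was -0.91, and 11 of the 14 had every 50 µg/L array below every control array (9.79% of all genes did). The 4 that fell encode small membrane subunits: cox7a2l, cox7b, cox7c and cox8a. The largest fall was that of cox7a2l, whose product in mammals joins complex IV to complex III in a supercomplex. The signal of cox7a2l was 4042, 5541 and 7087 in the control arrays, 4434, 4351 and 2284 at 20 µg/L and 1561, 2250.1 and 1994 at 50 µg/L. The 50 µg/L arrays were the lowest, with the third 20 µg/L array close above them. The change was -1.50 (SE 0.31, adjusted p = 0.0249).

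Subunit 8 is another of the small membrane subunits, and its gene cox8a was even at 50 µg/L and uneven in the control. Control arrays gave 3253, 2653 and 6454 for cox8a, the 20 µg/L arrays 2548, 2615 and 2477 and the 50 µg/L arrays 1549, 1673 and 1631. The third control array was higher than any other, and the change was -1.24 (SE 0.30, adjusted p = 0.0416), or -0.86 without that array (adjusted p = 0.0521). For cox7c the signal was 9772, 13826 and 18127 in the control arrays, 9067, 11047 and 8536 at 20 µg/L and 5302, 7515 and 6932 at 50 µg/L. The same array was the highest for this gene, and the change was -1.05 (SE 0.25, adjusted p = 0.0382). Subunit 7B, encoded by cox7b, gave 5224, 7864 and 8599 in the control arrays, 4906, 6216 and 3957 at 20 µg/L and 3376, 4033 and 3062 at 50 µg/L. Its change was -1.03 (SE 0.26, adjusted p = 0.0446), and no array at 50 µg/L reached the control.

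The one riser was cox6b1, for subunit 6B on the intermembrane face of the complex. The signal of cox6b1 was 47.3, 45.0 and 91.2 in the control arrays, 56.3, 76.2 and 94.3 at 20 µg/L and 288, 218 and 170.2 at 50 µg/L. All 3 control arrays were under the tag level, so the control holds only a bound: with signals raised to that level, the 50 µg/L mean of cox6b1 was higher by at least 3.21-fold, and the fitted change was 1.91 (SE 0.42, adjusted p = 0.0313). Its paralog cox6b2, named after a testis-type subunit in mammals, was among the brightest genes of the group. Control arrays gave 12917, 15132 and 11336 for cox6b2, the 20 µg/L arrays 10778, 13483 and 9546 and the 50 µg/L arrays 8039.9, 10111 and 7686. It gave a difference of -0.61 (adjusted p = 0.102), with every array at 50 µg/L below every control array. The bright gene of the pair was thus lower and the dim one higher at the same dose, and no test of the difference between them was run.

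The other genes of complex IV did not pass the test. Subunit 5A, which lies on the matrix side, has the genes cox5aa and cox5ab. The signal of cox5aa was 4591, 4203 and 6448 in the control arrays, 4088, 4101 and 3759.7 at 20 µg/L and 3491, 2784 and 3424 at 50 µg/L. Control arrays gave 1163, 1095 and 2539 for cox5ab, the 20 µg/L arrays 1322, 1409 and 964 and the 50 µg/L arrays 971, 723 and 682. Both pairs of groups were without overlap, with changes of -0.63 (adjusted p = 0.115) and -0.92 (adjusted p = 0.122). For cox5ab the third control array was far above the other 2, and without it the change was -0.53. Subunit 6A, encoded by cox6a1, showed the same array more strongly. The signal of cox6a1 was 5646, 5542 and 13589.5 in the control arrays, 5817, 5718 and 4489 at 20 µg/L and 3249, 4035 and 4087 at 50 µg/L. The change of cox6a1 was -1.00 (adjusted p = 0.0848), and without the third control array it was -0.57. The remaining tested genes, cox5ba, cox6c and cox7a2a, had changes of -1.00, -0.64 and -0.89, with adjusted p of 0.0821, 0.138 and 0.0562, and none overlapped the control at 50 µg/L. Without the third control array the change of cox6c was -0.40.

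Both measured genes for subunit 4, the largest nuclear subunit, were at or near background. The signal of cox4i1l was 30.2, 12.9 and 20.0 in the control arrays, 31.8, 47.3 and 42.0 at 20 µg/L and 179.6, 186 and 7.02 at 50 µg/L. Control arrays gave 37.7, 9.3 and 18.5 for cox4i2, the 20 µg/L arrays 10.3, 7.9 and 13.9 and the 50 µg/L arrays 28.9, 18.4 and 76.9. Most of these signals are under the tag level, and neither gene was tested. The 2 high arrays of cox4i1l at 50 µg/L stand beside 1 at 7.0, so the arrays at that dose disagree with each other.

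ATP synthase had 18 measured genes, all tested. At 50 µg/L 7 fell and none rose, against 1.03% and 3.53% of all probe sets tested. The median change was -0.90, and 14 of the 18 had every 50 µg/L array below every control array (9.79% of all genes did). Without the 2 inhibitor genes the median of the 16 subunit genes was -1.04. The genes that fell were spread over the parts of the enzyme: the rotating stalk of the head (2 of 3), the c ring (1 of 3), the peripheral stalk (1 of 3) and the small membrane subunits (3 of 6).

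**Figure D2:**
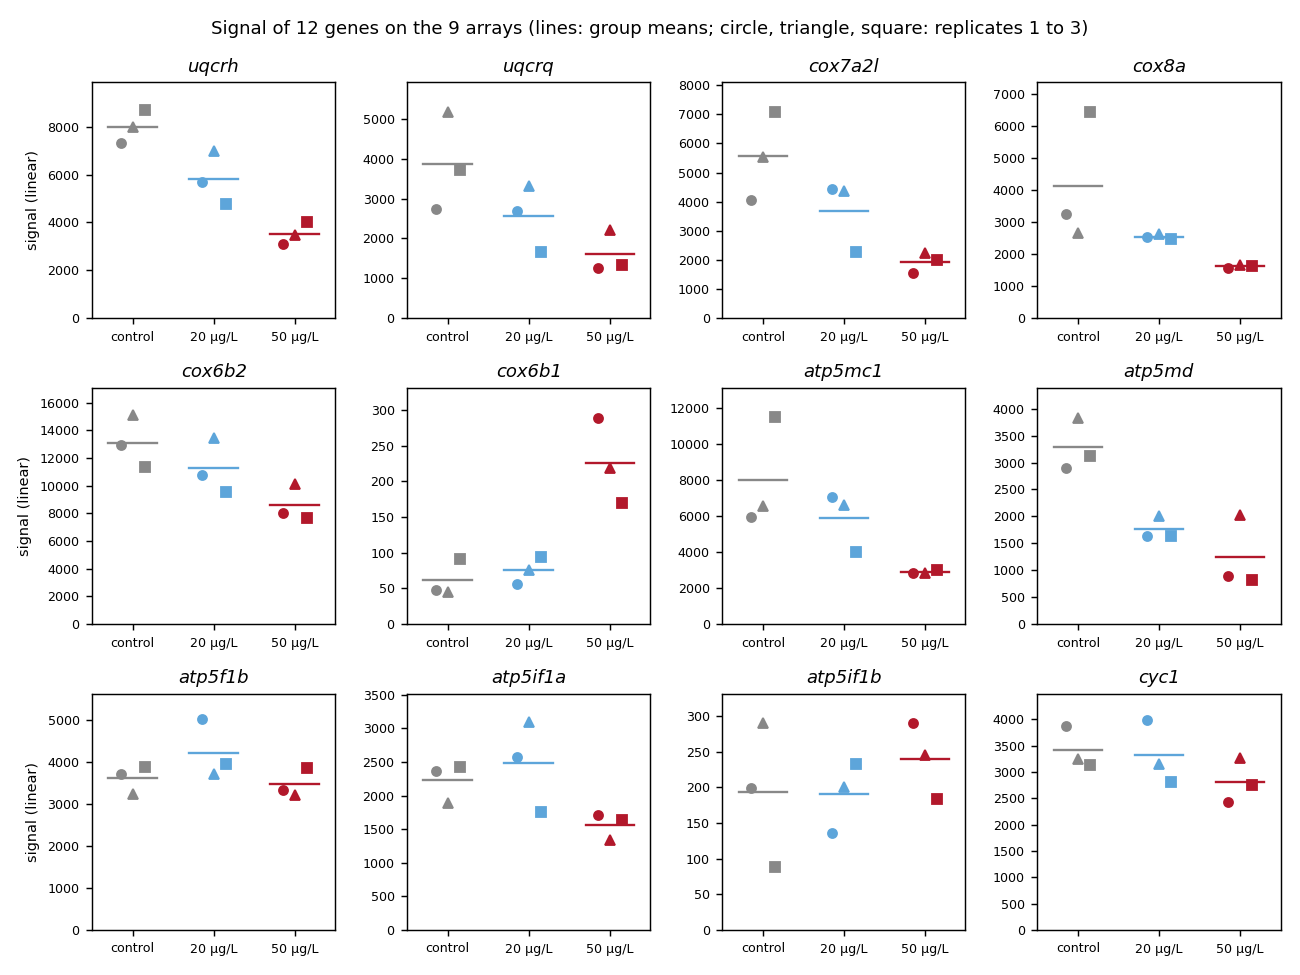
Each panel plots the linear signal of 1 gene on the 9 arrays, with the control, 20 µg/L and 50 µg/L groups from left to right, a line at each group mean and the symbols marking replicates 1 to 3. The panels of uqcrh, cox7a2l and atp5mc1 show the 50 µg/L arrays lowest, cox6b1 shows them highest, and those of atp5f1b overlap the control.

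In the F1 head, the catalytic beta subunit gene atp5f1b had the fitted change nearest 0 of all 42 genes. The signal of atp5f1b was 3713, 3244 and 3875 in the control arrays, 5010.3, 3705 and 3949.9 at 20 µg/L and 3321, 3206 and 3863 at 50 µg/L. The groups overlapped and the change was -0.06 (SE 0.22, adjusted p = 0.882). The 3 stalk genes are atp5f1c for gamma, the rotating shaft, and atp5f1d and atp5f1e for delta and epsilon, which join the shaft to the membrane ring. Control arrays gave 2173, 2296 and 2634 for atp5f1d, the 20 µg/L arrays 1824, 1743 and 955 and the 50 µg/L arrays 908, 1266 and 689. The delta gene fell by 1.35 in log2 (adjusted p = 0.0362), and the third 20 µg/L array was already within the range at 50 µg/L. For atp5f1e the arrays read 3839, 4122 and 4827 in the control, 2075, 3322 and 1987 at 20 µg/L and 2047, 2402 and 1287 at 50 µg/L. The epsilon gene fell by 1.20 (adjusted p = 0.0425), and both doses were below the control without overlap. The signal of atp5f1c was 3877, 3506 and 5375 in the control arrays, 3931, 4365 and 2147 at 20 µg/L and 2350.4, 2478 and 2404 at 50 µg/L. The gamma gene gave a difference of -0.79 (adjusted p = 0.117), with the 50 µg/L arrays close together and below the control.

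Subunit c forms the proton-carrying ring and has 3 measured genes. In mammals the corresponding genes encode the same mature protein and differ in the targeting sequence, and whether the zebrafish probe sets tell the genes apart was not tested. Control arrays gave 5911, 6543 and 11449 for atp5mc1, the 20 µg/L arrays 7031, 6594 and 3978 and the 50 µg/L arrays 2827, 2845 and 2994. The 50 µg/L arrays of atp5mc1 were nearly equal and below all others, and the change was -1.40 (SE 0.29, adjusted p = 0.0252). Without the third control array, the highest of its group, the change was -1.11 (adjusted p = 0.038). The signal of atp5mc3a was 5316, 5519.7 and 6399.5 in the control arrays, 5474, 8164 and 4181 at 20 µg/L and 3406, 4540.4 and 3853 at 50 µg/L. For atp5mc3b the arrays read 8780.5, 8876 and 15416 in the control, 9254, 9886 and 5861 at 20 µg/L and 5619.7, 8345 and 5811 at 50 µg/L. Both of these paralogs had every 50 µg/L array below every control array and neither passed the test, with changes of -0.55 (adjusted p = 0.211) and -0.71 (adjusted p = 0.152). Without the third control array that of atp5mc3b was -0.45.

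The peripheral stalk holds the head still against the ring. Its subunit d gene fell. Control arrays gave 2028, 1703 and 1910.1 for atp5pd, the 20 µg/L arrays 1229.8, 1133 and 1217 and the 50 µg/L arrays 974, 675 and 826. For atp5pd both doses lay below the control without overlap, and the change at 50 µg/L was -1.20 (SE 0.24, adjusted p = 0.0213). Subunit b, the long arm of the stalk, is encoded by atp5pb. The signal of atp5pb was 2996, 2198 and 1719 in the control arrays, 2922, 2274 and 1811 at 20 µg/L and 1518, 1508 and 1492 at 50 µg/L. This gene was below the control in every 50 µg/L array but gave a difference of -0.58 (adjusted p = 0.213). The F6 gene atp5pf gave a difference of -1.11 (adjusted p = 0.0606), also without overlap. Without the third control array, the highest of its group, the change of atp5pf was -0.76 (adjusted p = 0.109).

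Of the small membrane subunits, which hold ATP synthase dimers together or are bound beside the ring, 3 of 6 genes fell. The largest change of all 42 genes downward was that of atp5md, which encodes the subunit called DAPIT in mammals. Control arrays gave 2893, 3831 and 3117 for atp5md, the 20 µg/L arrays 1632, 2012 and 1635 and the 50 µg/L arrays 888, 2016 and 811. One array at 50 µg/L lay at the level of the 20 µg/L arrays and the other 2 far below. The change was -1.52 (SE 0.33, adjusted p = 0.0286). The signal of atp5l was 2537, 2329 and 2926 in the control arrays, 1896, 1699.9 and 1188 at 20 µg/L and 840.1, 1342 and 921 at 50 µg/L. The subunit g gene atp5l had its lowest mean at 50 µg/L and changed by -1.35 (SE 0.27, adjusted p = 0.0226). A second probe set of this gene, with a mean of 25.8 over the arrays, was too dim to be tested. For atp5mf the arrays read 2909, 4029 and 4647 in the control, 2001, 2272 and 1696 at 20 µg/L and 1796, 2300.5 and 1447 at 50 µg/L. For atp5mf, the subunit f gene, the fall at 50 µg/L was 1.06 (adjusted p = 0.0447), and the arrays at 20 µg/L were as low as those at 50 µg/L. The subunit e pair atp5mea and atp5meb had changes of -0.68 (adjusted p = 0.273) and -0.47 (adjusted p = 0.366), and in both the second control array was high and the groups overlapped. The proteolipid gene atp5mj gave a difference of -1.02 (adjusted p = 0.0736).

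The inhibitory factor binds the head and blocks hydrolysis of ATP when the gradient is lost. Its 2 genes had opposite signs and neither passed the test. The signal of atp5if1a was 2361, 1887 and 2427 in the control arrays, 2578, 3103 and 1759.5 at 20 µg/L and 1704, 1343 and 1638 at 50 µg/L. Control arrays gave 199.7, 291 and 88.8 for atp5if1b, the 20 µg/L arrays 136, 201 and 233 and the 50 µg/L arrays 289.9, 245 and 184. The bright gene, atp5if1a, was below the control without overlap and gave a difference of -0.51 (adjusted p = 0.256). The dim gene, atp5if1b, overlapped the control, had 1 control array under the tag level and gave a difference of 0.44 (adjusted p = 0.543), or -0.03 without that array, the third. The 2 genes outside the enzymes gave 0.88 (adjusted p = 0.508) for dmac2l and 0.32 (adjusted p = 0.559) for emc8, both with overlapping groups, and 1.56 and 0.11 for these 2 without the third control array.

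The calls rest on 3 arrays per dose. Without the first 50 µg/L array none of the 13 calls remained, with adjusted p from 0.0823 to 0.185, and the 12 genes that fell and the 1 that rose kept their direction. Without the second or the third 50 µg/L array 2 and 1 of the 13 remained called, and without the third control array 7 did. The calls lost without that control array were those of cox7b, cox7c, cox8a, atp5f1d, atp5f1e and atp5mf, with adjusted p from 0.0521 to 0.0797. Of the 9 runs with 1 array left out, atp5mf kept its call in 1, and cox7b, cox8a and atp5f1d in 2. The number called was 5 without the first control array and 7 and 8 without the first or the second 20 µg/L array, which enter through the shared estimate of the spread. The 5 genes uqcrh, cox7a2l, atp5mc1, atp5pd and atp5l kept the call under each of the 10 other processing settings run.

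The level of each enzyme on each array was taken as the median over its genes of the log2 value minus the gene's mean in the control. For complex III the 50 µg/L arrays were at -0.73, -0.66 and -0.70, against -0.09, -0.03 and 0.06 for the control arrays. For complex IV the 50 µg/L arrays were at -0.85, -0.84 and -0.92, against -0.27, -0.23 and 0.38 for the control arrays. For ATP synthase the 50 µg/L arrays were at -0.93, -0.72 and -1.15, against -0.13, -0.05 and 0.16 for the control arrays. In all 3 enzymes the 50 µg/L arrays lay below every control array, and complex IV had the widest control group.

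**Figure D3:**
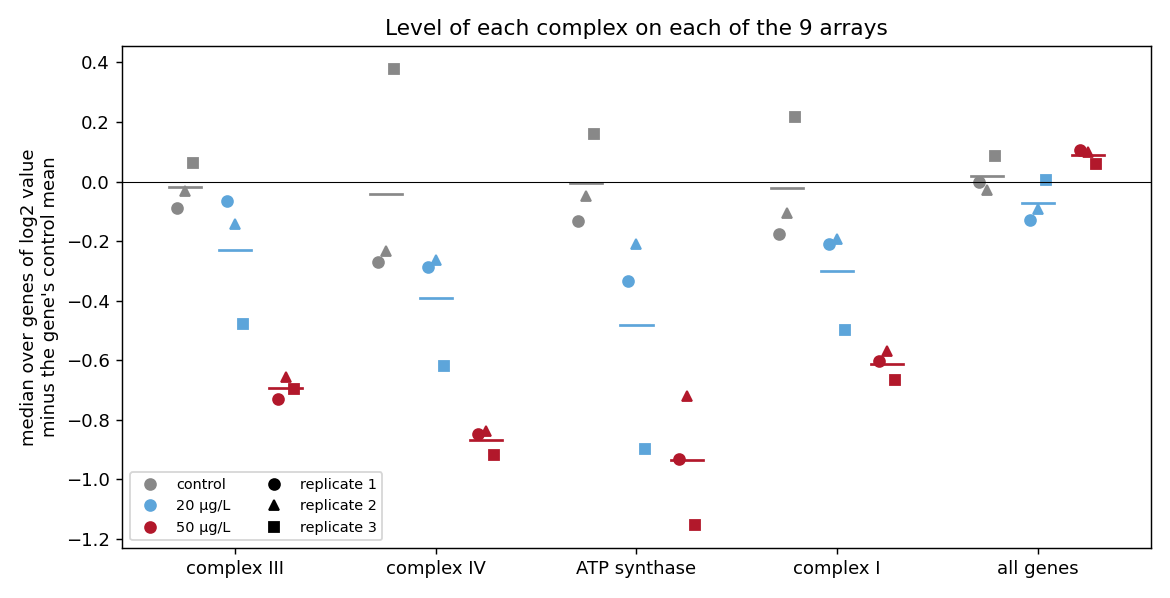
For each enzyme, complex I and all genes, a symbol gives 1 array's median over genes of the log2 value minus the gene's control mean, and a line gives the group mean, with the control, 20 µg/L and 50 µg/L groups from left to right. The 50 µg/L arrays sit below 0 in all 4 complexes and between 0.06 and 0.11 for all genes, and the square of the 20 µg/L group (replicate 3) is low in each complex.

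The place of complex IV among the 3 enzymes depended on the third control array. The median changes were -0.91 in complex IV, -0.90 in ATP synthase and -0.68 in complex III. They became -0.64, -0.77 and -0.72 without the third control array. Complex IV then had the smallest change, but its median includes cox4i1l and cox4i2, too dim to be tested (1.63 and 0.83 without that array). Over its 12 tested genes the median was -0.96 on all arrays. Without the third control array the middle changes of those genes were -0.80 (cox7a2a) and -0.71 (cox6b2). The last place of complex IV thus rests on including the dim genes. Within arrays, the complex IV level minus the complex III level was -0.12, -0.18 and -0.22 at 50 µg/L, against -0.18, -0.20 and 0.32 in the control. The complex III level minus the ATP synthase level was 0.20, 0.06 and 0.46 at 50 µg/L, against 0.04, 0.02 and -0.10 in the control. For this pair every 50 µg/L array lay above every control array, the lowest of them by a narrow margin. Without the arrays numbered 3, however, the median changes were -0.75 in complex III and -0.73 in ATP synthase. The share of tested genes that fell was 12.5% in complex III, 33.3% in complex IV and 38.9% in ATP synthase, against 1.03% of all probe sets tested. These shares were not tested against each other, and they too depended on the third control array. Without it, uqcrh was the only fallen gene in complex III and cox7a2l the only one in complex IV. In ATP synthase atp5l, atp5mc1, atp5md and atp5pd kept the call. With 3 arrays against 3, an exact permutation test could not go below 0.1 two-sided, and none was run.

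Complex I, the NADH dehydrogenase, was set beside them through 33 genes with symbols starting ndufa, ndufb, ndufc, ndufs or ndufv, leaving out ndufaf. Of these, 32 were tested. At 50 µg/L 4 of these fell and none rose, against 1.03% and 3.53% of all probe sets tested. The median change was -0.59. Of the complex I genes 57.6% had every 50 µg/L array below every control array, against 9.79% of all genes. The level of complex I was -0.60, -0.57 and -0.66 on the 50 µg/L arrays, against -0.18, -0.11 and 0.21 on the control arrays. The complex I genes taken in this way were thus lower at 50 µg/L too, with a median change nearer 0 than in the 3 other enzymes. That form of symbol takes in ndufa4 genes, which were also on the complex IV assembly list given below, so these sets overlap. Complex II, which is also an enzyme of the citric acid cycle, was taken by a list of its subunits and assembly factors together. Of 7 genes measured from that list, 6 were tested. None passed at 50 µg/L, and the changes of the 7 ran from -0.22 to 0.52. Genes of the cytosolic ribosome were taken as those with a symbol starting rpl or rps followed by a digit, with no further check of each gene. They had a median change of -0.58 over 75 genes, and 6 of 73 tested fell. Of the genes taken in this way 69.3% had every 50 µg/L array below every control array, close to the 71.4% of the respiratory genes described here.

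At 20 µg/L against the control limma called none of the 40 genes tested, and none of the 9302 probe sets (0.0%). At an unadjusted p under 0.05 there were 7 of the 40 genes, against 7.82% of all probe sets. The lowest adjusted p was 0.611. Of the 42 genes 35 had a lower mean at 20 µg/L than in the control, 10 lay below it without overlap (7.98% of all genes did) and 1, cox4i1l, above it (4.37% of all genes). Every control and 20 µg/L array of cox4i1l was under the tag level, so its groups were not told from background. The medians were -0.19 in complex III, -0.47 in complex IV and -0.42 in ATP synthase, against -0.10 over all genes. The 10 genes were uqcrh, cox5aa, cox7a2a, cox8a, atp5f1d, atp5f1e, atp5pd, atp5mf, atp5l and atp5md. Of these, atp5mf had the lowest fitted value, -0.94.

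The third 20 µg/L array was the lowest of its dose in all 3 enzymes. In complex III its level was -0.48, and the other 2 arrays of the dose were at -0.07 and -0.14. In complex IV it was -0.62, beside -0.29 and -0.26, and in ATP synthase -0.90, beside -0.33 and -0.21. Without it the medians at 20 µg/L were -0.12, -0.29 and -0.17 in complex III, complex IV and ATP synthase. In the deposited table the arrays numbered 3 were written with more decimals than the other 6. Whether this marks a separate processing run is not stated. Within the other 6 arrays the medians at 20 µg/L were -0.07, -0.10 and -0.17, and those at 50 µg/L were -0.75, -0.63 and -0.73. The arrays numbered 3 hold 1 array per group and gave no test of their own.

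Between the doses, 50 against 20 µg/L, limma called none of the 40 genes, against 0.0323% of probe sets that fell and 1.39% that rose. At an unadjusted p under 0.05 there were 13 of the 40, against 18.5% of all probe sets, and the lowest adjusted p was 0.0899, that of cox6b1. The medians were -0.51 in complex III, -0.48 in complex IV and -0.53 in ATP synthase, against 0.17 over all genes. Without overlap, 17 of the 42 genes were lower at 50 than at 20 µg/L (8.27% of all genes were) and 2 were higher, cox4i2 and cox6b1 (18.1% of all genes were). For cox4i2 all 3 arrays at 20 µg/L and 2 at 50 µg/L were under the tag level. With each array weighted by its fit, 16 of the 40 fell and 1 rose, so the count in this comparison depends on the weighting. Without the third 20 µg/L array or without the third control array 2 of the 40 passed.

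The group means ran downward in the order control, 20 µg/L, 50 µg/L in 31 of the 42 genes: 7 of 8 in complex III, 11 of 14 in complex IV and 13 of 18 in ATP synthase. They ran upward in that order in 3 genes. The mean at 20 µg/L was at or above the control and that at 50 µg/L below it in 4 genes, uqcrb among them. Since the comparisons with the control share its arrays, the order is a description.

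The changes of the genes went with their brightness. Of the 42 genes 34 had a mean signal of at least 1000, and all 34 were lower at 50 µg/L than in the control. The 5 genes under 250 were cox4i2, cox4i1l, dmac2l, cox6b1 and atp5if1b, and all 5 had a higher fitted value. Of these only cox6b1 passed the test. The genes cox4i2 and cox4i1l were too dim to be tested, and dmac2l and atp5if1b overlapped the control. Without the third control array the change of atp5if1b was -0.03. The other dim genes kept their sign without it: 2.23 for cox6b1, 1.56 for dmac2l, 1.63 for cox4i1l and 0.83 for cox4i2. All 3 control arrays of cox6b1, cox4i1l and cox4i2 were under the tag level, and 1 control array each of dmac2l and atp5if1b was. The part of background in these changes was not tested. Over all genes the median change was -0.16 for those with a mean of at least 1000 and 0.10 for those under 250, and after quantile normalization these were -0.06 and -0.02. Of the 42 genes 35 were in the brightest 20% of the array, and the medians of the 3 enzymes lay below that of the bright genes as a whole. After quantile normalization the medians were -0.75 in complex III, -0.78 in complex IV and -0.84 in ATP synthase.

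**Figure D4:**
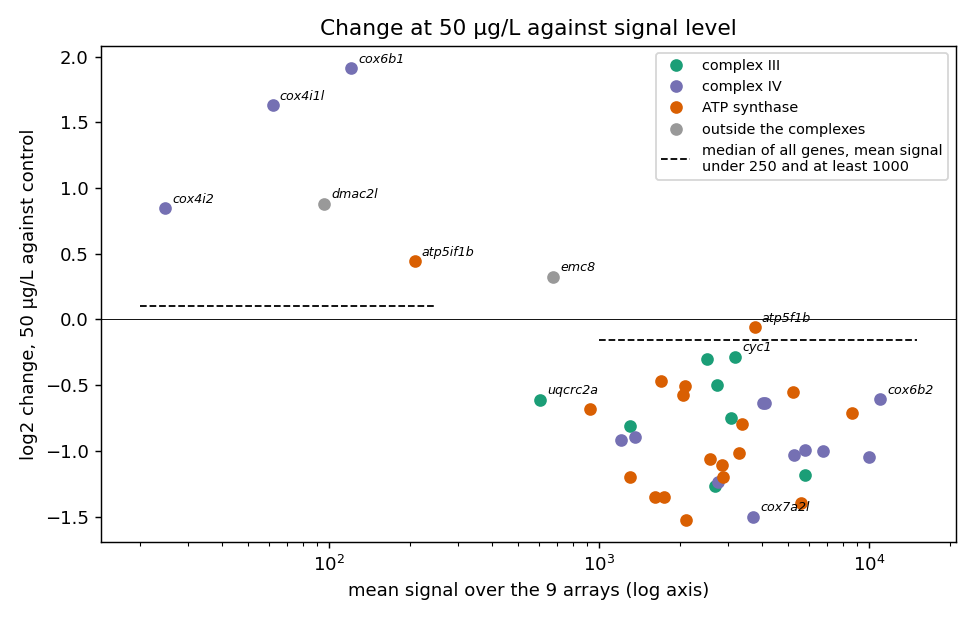
Each point is 1 gene, placed by its mean signal over the 9 arrays on a log axis and by its log2 change at 50 µg/L against the control, with colours for the enzymes and dashed lines at the median of all genes under 250 and at least 1000. The 5 points under 250 lie above 0, and the 34 points at or above 1000 lie below 0, most of them below the dashed line at -0.16.

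Genes that assemble or serve these enzymes were taken by list. Of 13 tested genes on the complex IV assembly list, which holds ndufa4 genes shared with the complex I set, 1 fell at 50 µg/L and none rose. Their median was -0.26. The one that fell was cox10, which makes the heme A precursor of complex IV. It averaged 454 at 50 µg/L and 1012 in the control, a change of -1.14 (adjusted p = 0.046). The assembly factor surf1 gave -0.26 (adjusted p = 0.59). None of the 3 tested assembly factors of complex III passed, with a median of 0.16, and of the 2 for ATP synthase atpaf1, which helps build the F1 head, gave -0.66 (adjusted p = 0.115).

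Cytochrome c, the carrier between complexes III and IV, was measured through cycsb, which gave a difference of -1.11 (adjusted p = 0.081), and 0 of the 2 genes of that list passed. The phosphate carrier gene slc25a3b, which supplies ATP synthase and was named after its value was seen as the only tested gene of its list, gave a difference of -0.92 (adjusted p = 0.103). None of 8 tested regulators of mitochondrial gene expression passed, with a median of 0.02. Among them nrf1, a transcription factor for respiratory genes, gave 0.63 (adjusted p = 0.126) and tfam, which packs and transcribes mitochondrial DNA, gave 0.67 (adjusted p = 0.461).

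Markers of other sources of RNA, from lists chosen with earlier results of these data known, were read beside these results. Of 9 measured genes known to be supplied by the oocyte, 7 rose at 50 µg/L, while 3.53% of all probe sets tested rose. The median change of the 9 was 2.58, and 1 of them had a lower mean, with a change of -0.75. The summed signal of the 9 was 13616 to 27761 at 50 µg/L, against 3094 to 4839 in the control. At 20 µg/L the sum was 3023 to 4877. The gastrula markers summed to 53906 to 67808 at 50 µg/L, against 36509 to 39803 in the control, and of these 12 genes gsc and vent rose and otx2b fell. None of the 7 measured markers of the enveloping layer passed the test, with a median change of -0.07. None of the 4 of germ cells passed either, but all 4 had a higher mean, with a median of 0.78. Of 6 of the yolk syncytial layer 1 rose, hnf4a, and 3 had a lower mean than in the control. The part of these shifts in the lower signals of the respiratory genes was not tested.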

How the data were processed

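Total RNA of 9 samples was measured on 9 Affymetrix arrays. The deposited table holds an intensity on a linear scale for each probe set and sample. GCOS and MAS5 are named in the submitters' processing notes, and their versions are not given in the sources used here. The authors' scaling is visible in the deposited intensity values: after trimming 2% at each end, all arrays averaged 500.1 or 500.2.

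From these values log2(intensity + 1) was computed. Left out were 115 control probe sets and, of the others, the 40% dimmest by their mean, so that 9302 of 15617 probe sets entered the test. All 9 arrays entered 1 model of group means in limma 3.58.1 (R 4.3.3), with an intensity trend in eBayes. Each dose was compared with the control and 50 µg/L with 20 µg/L, two-sided, and p-values were adjusted by Benjamini-Hochberg across all tested probe sets (threshold 0.05). The test was also run on simulated data with independent probe sets and no outlying arrays. That run cannot show how far the calls depend on single arrays. The number of arrays limits the precision.

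Symbols came from the platform annotation (10802 probe sets with 1 gene, 135 with several), updated through gene identifiers. Signal under the 95th percentile of the 17 tag control probe sets was treated as not above background. No sequences or coordinates were used. The members and gene lists were chosen with earlier results of these data known. Given with values in every array were members past the threshold in any comparison, the 3 largest falls and 2 largest rises of each enzyme, and a list of catalytic subunits and paralogs. For the other members, the changes and adjusted p-values are given, without values in every array except for uqcrc2a and atp5pb, chosen after their values were seen, and of the pathway lists those past the threshold and 6 genes chosen by name (slc25a5 was not measured by a 1-gene probe set). Alternatives were another offset, filters, a background floor, quantile normalization, array weights, blocks, 6 arrays alone and each array left out.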

Additional observations from a re-analysis of the deposited data

How the results depend on the processing

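The calls depended on the arrays and the settings. At 50 µg/L against the control 13 of the 40 tested genes passed. This count was 8 after quantile normalization, 24 with array weights, 6 within the 6 arrays of the larger export, and 0 without both the third control array and the first 50 µg/L array, an alternative chosen after seeing the data, under which the complex III median was -0.62. Leaving out 1 array at a time gave 0 to 16. With 50 against 20 µg/L, where none passed, the count was 1 with dim signals raised to the tag level, 17 with array weights, 6 within the 6 arrays of the larger export and 0 to 2 with 1 array left out. At 20 µg/L against the control it was 0 in every setting run. The complex III median at 50 µg/L lay between -0.82 and -0.67 with 1 array left out, that of complex IV between -1.03 and -0.64, and that of ATP synthase between -1.02 and -0.77. The deviations of same-numbered arrays had correlations of -0.165 to 0.232. These values had no reference range to be read against, so they do not show whether the numbers pair the samples. With the replicate number as a block 9 genes were called, all of them fallen, with uqcrq gained. Where a member was called in the main fit or under an alternative, its direction was the same in both. Members not called could change sign at 50 µg/L. The change of atp5f1b went from -0.06 to 0.09 after quantile normalization, and that of atp5if1b from 0.44 to -0.03 without the third control array. The causes of these shifts were not tested. Probe sets near the tag level hold bounds only.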
